A study of Mus musculus with 4 samples.

Results

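Interferon-stimulated genes are the genes that cells switch on after type I interferon binds its receptor, and 49 of them form the set described here. The set is a list of gene symbols, drawn up with earlier results of these data known. It holds antiviral effectors such as the IFIT, OAS and Mx families, the ISG15 and ubiquitin genes, membrane proteins that act on viral entry or release, and nuclear and ADP-ribosylating proteins. In the values of the 4 mouse libraries, 48 of the 49 genes appeared, among 33783 gene symbols in all; Gbp6 was not analysed here. The liver libraries held 48 members. The embryo libraries held 5 members in common, because they share values only for chromosomes 10 and 11 and the start of chromosome 12. The embryo Adar1-/- Mavs-/- values run on into chromosome 13. The other 44 members were not compared in embryos.

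Total RNA was sequenced from 1 library in each of 4 groups. Whole embryos at E11.5 (strain label C57B16/N) were labelled Adar1-/- or Adar1-/- Mavs-/-, and embryonic livers at E15.5 (strain label C57B6/J) carried the same pair of genotype labels. Both groups of a tissue therefore lack Adar1 by label, and the comparison is between Mavs present and Mavs lost, with no wild-type library here. The sources used here do not state how the alleles were made, whether animals were pooled or how Adar1-/- livers were obtained at E15.5.

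ADAR1, encoded by Adar, edits adenosine to inosine in double-stranded RNA. Unedited double-stranded RNA can be bound by the sensors MDA5 and RIG-I, which signal through the mitochondrial adaptor MAVS to switch on type I interferon. Secreted interferon then acts through IFNAR1 and IFNAR2 and the kinases JAK1 and TYK2 on transcription factors, among them STAT2 and IRF9, that bind the interferon-stimulated response element in the promoters of the genes described here.

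The unit is FPKM, a fragment count divided by transcript length and by the mapped fragments of the library, summed over the isoforms of a gene. A log2 ratio sets the Adar1-/- Mavs-/- library of a tissue over its Adar1-/- library, with 1 FPKM added to each value and 1 scaling factor per tissue, so a negative ratio means lower in the library labelled Adar1-/- Mavs-/-. This scale understates differences of low genes. A gene was counted when it reached 1 FPKM in either library of the tissue, and 2-fold means a log2 ratio of 1 or more in either direction. Because each group is 1 library, the spread between animals is unknown, no test was possible, and the bounds quoted cover estimation within a library only. A lower value in whole tissue cannot tell fewer expressing cells from less RNA per cell.

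The libraries were checked against their labels in liver, since Adar and Mavs lie on chromosomes not analysed in embryos. Adar was 5.56 FPKM under the Adar1-/- label and 4.11 FPKM under the Adar1-/- Mavs-/- label, with 0 of 8 and 3 of 8 reference isoforms above 0. Mavs was 7.26 FPKM in the library labelled Adar1-/- and 9.96 FPKM in the library labelled Adar1-/- Mavs-/-, so the Mavs value was not lower where the label says Mavs was lost. A deleted allele can still be transcribed, and the sources used here do not state which exons were removed, so libraries are called by their labels throughout. All 8 hepatocyte markers were counted in both liver libraries, with a summed level of 12269 and 14310 FPKM, and all 8 whole-embryo markers were counted in the embryo libraries (983 and 951 FPKM). Hba-x alone made up 806 and 852 FPKM of the embryo sums. Of the 8, 1 was 2-fold lower, Col1a1 at 77.9 and 22.7 FPKM, and 0 were 2-fold higher. Coverage per FPKM, which follows depth, was 3.48 and 5.62 in embryos and 8.58 and 7.13 in livers, with the library labelled Adar1-/- first.

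Promoter sequences were searched for an exact core of the response element, so close variants of it were not counted. The core searched was GAAANNGAAA, 10 letters long, on both strands and with overlapping matches allowed, in the 300 bases from 250 before to 50 after each start site in RefSeq (GRCm38.p6). It was found for 16 of the 39 members with a promoter entry (41.0%) and for 1079 of all 27025 symbols with one (3.99%). A match at any start site of a gene was enough. The following 150 bases upstream of the start site, written 5′ to 3′ in the sense of the gene with matches in capitals, are shown for Lgals9, the only member of the 5 in embryos with a match, for Isg15 and Bst2, which were 2-fold lower in liver under the Adar1-/- Mavs-/- label, and for Ifit1 and Gbp2, which were within 2-fold there.
Lgals9, chr11:78984925-78985074, minus strand: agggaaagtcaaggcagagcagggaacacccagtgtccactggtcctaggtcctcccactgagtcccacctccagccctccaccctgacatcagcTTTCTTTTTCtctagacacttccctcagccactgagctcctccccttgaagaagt
Isg15, chr4:156200819-156200968, minus strand: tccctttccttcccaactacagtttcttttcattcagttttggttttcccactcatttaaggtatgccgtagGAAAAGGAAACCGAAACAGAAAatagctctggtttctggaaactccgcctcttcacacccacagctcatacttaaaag
Bst2, chr8:71537473-71537622, minus strand: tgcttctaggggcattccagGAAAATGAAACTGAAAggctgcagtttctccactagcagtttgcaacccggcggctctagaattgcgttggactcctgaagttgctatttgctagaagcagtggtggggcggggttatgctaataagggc
Ifit1, chr19:34640739-34640888, plus strand: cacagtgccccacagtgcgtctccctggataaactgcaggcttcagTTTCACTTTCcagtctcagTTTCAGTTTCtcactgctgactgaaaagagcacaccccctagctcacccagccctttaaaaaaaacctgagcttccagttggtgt
Gbp2, chr3:142620513-142620662, plus strand: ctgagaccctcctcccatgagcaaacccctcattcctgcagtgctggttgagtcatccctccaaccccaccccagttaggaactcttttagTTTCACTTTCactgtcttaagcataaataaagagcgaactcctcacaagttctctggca

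Isg15 held 3 matches that overlap end to end, 78, 72 and 66 bases before its start site. Bst2 held an overlapping pair 130 and 124 bases before its start, Ifit1 a separate pair at 104 and 85 bases, Gbp2 a single match at 59 bases and Lgals9 one at 55 bases. Lgals9 held another match 15 bases after its start, outside the stretch shown. A match is a description of the sequence, not a bound site.

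In embryos, all 5 members that could be read were lower in the Adar1-/- Mavs-/- library by 2-fold or more, and their bounds did not overlap between the libraries. Their median log2 ratio was -4.01, against -0.12 over the 1916 genes counted. Over those genes, 9.76% were at least 2-fold lower and 6.42% at least 2-fold higher. Bounds apart were common there too. They were apart for 166 of the 187 genes that were 2-fold lower, and overlapped for only 554 of the 1916. Bounds were compared as deposited, before the scaling factor. The 5 genes all sit on chromosome 11, at separate places. By role, Lgals3bp and Lgals9 were grouped together as galectin and binding protein, and Ifi35 and Xaf1 together under transcription and nuclear bodies.

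Rnf213 encodes a very large E3 ubiquitin ligase that also acts on intracellular pathogens (mm9 chr11:119254414-119348732). It was the most abundant member in embryos, with 90.0 FPKM in Adar1-/- (bounds from 89.3 to 90.8) and 1.0 FPKM (0.927 to 1.07) in the Adar1-/- Mavs-/- library, a log2 ratio of -5.28. The Adar1-/- value came from a single reference isoform of 16713 bases that the deposited status column marks as low data in that library and as OK in the other. Without isoforms of that status the log2 ratio was 1.21, so the direction for Rnf213 depends on keeping it. When all isoform signal inside the gene's span was added up instead, the ratio was -5.97.

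Ifi35, an interferon-induced leucine zipper protein that binds the member NMI, lies at mm9 chr11:101309721-101320012. It was 31.4 FPKM (25.2 to 37.6) in the Adar1-/- embryos but listed at 0 in the Adar1-/- Mavs-/- embryos, where none of its 3 isoforms was above 0, so no fold is given. Lgals3bp, a secreted glycoprotein that binds galectins (mm9 chr11:118254065-118263406), was 19.8 FPKM (18.3 to 21.4) in the Adar1-/- library and 0.221 FPKM (0.0408 to 0.403) in the other, a log2 ratio of -4.01. Both genes were far above 1 FPKM in the Adar1-/- library and below 1 FPKM in the other.

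Xaf1, a pro-apoptotic protein that binds the caspase inhibitor XIAP (mm9 chr11:72115131-72127235), was 15.3 FPKM (13.2 to 17.3) in the embryo Adar1-/- library and 0.299 FPKM (0.0893 to 0.510) in the Adar1-/- Mavs-/- library, a log2 ratio of -3.54. Lgals9 encodes galectin-9, a lectin that binds sugars on immune cell surfaces (mm9 chr11:78776476-78798448). It was 4.47 FPKM (3.33 to 5.61) and 0.259 FPKM (0.0332 to 0.527), a log2 ratio of -2.02, the smallest difference of the 5. All of its Adar1-/- value was in assembled isoforms, so with reference isoforms alone Lgals9 was not counted. Rsad2 (viperin) and Cmpk2, neighbours on chromosome 12, could be read only in the embryo Adar1-/- Mavs-/- library, at 0.0322 and 2.57 FPKM, and take part in no embryo comparison.

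**Figure D1:**
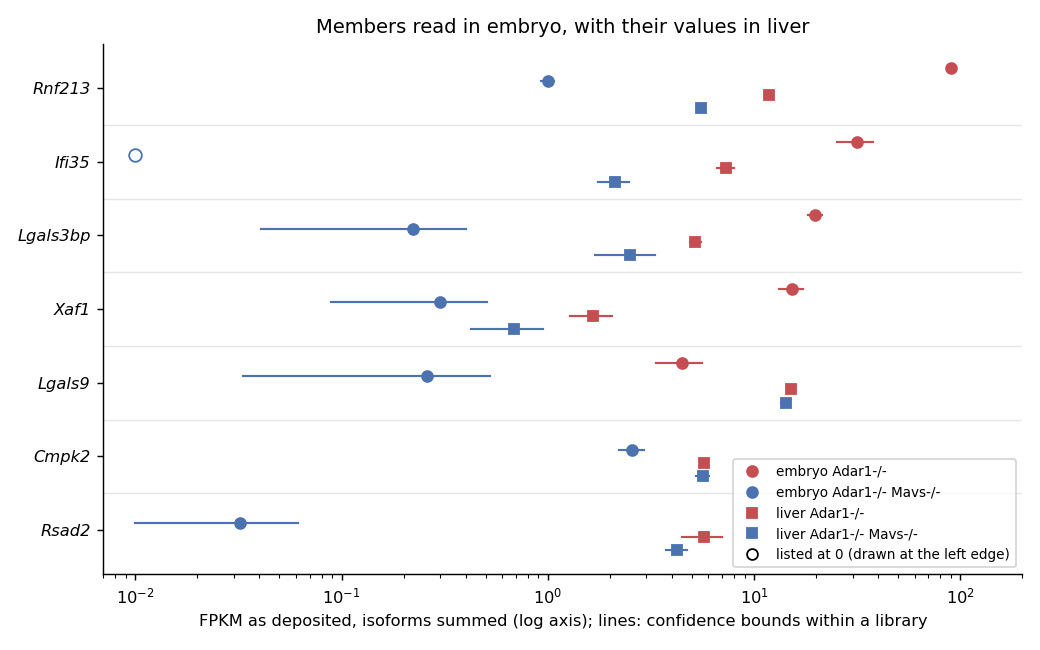
FPKM on a log axis for the 5 members read in both embryo libraries, and for Cmpk2 and Rsad2, which were read only in the embryo Adar1-/- Mavs-/- library; circles are embryo, squares liver, red Adar1-/- and blue Adar1-/- Mavs-/- by label, lines are the confidence bounds within a library, and an open circle is listed at 0. The red circles of the first 5 genes lie between 4.47 and 90.0 FPKM and the blue circles at or below 1.0 FPKM, whereas the liver squares of Lgals9 lie close together.

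The same 5 genes differed less in liver. Rnf213 was 11.9 and 5.52 FPKM there (log2 ratio -0.99), Ifi35 7.31 and 2.11 FPKM (-1.42), Lgals3bp 5.18 and 2.50 FPKM (-0.83), and Xaf1 1.66 and 0.685 FPKM (-0.66), with the library labelled Adar1-/- first. Lgals9 was 15.1 and 14.2 FPKM with overlapping bounds (-0.09). All 5 were lower in the library labelled Adar1-/- Mavs-/- in liver too, but with 1 FPKM added only Ifi35 passed 2-fold. With a pseudocount of 0.1, Rnf213 (-1.10), Lgals3bp (-1.03) and Xaf1 (-1.17) passed it as well, and Lgals9 did not (-0.09). The tissues differ in stage and strain label as well as in organ, and the difference between them was not tested.

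In liver, 38 of the 48 members were counted. Of these, 7 (18.4%) were lower under the Adar1-/- Mavs-/- label by 2-fold or more, 1 (2.63%) was at least 2-fold higher and 30 lay within 2-fold. Over the 13851 genes counted in liver, 9.74% were at least 2-fold lower and 6.53% at least 2-fold higher. The median log2 ratio of the members was -0.34, against -0.12 over all counted genes. Below 0 were 29 members (76.3%), 22 of them with bounds apart, and 9 were above 0, 6 of them with bounds apart. Over all counted liver genes, 8029 of 13851 (58.0%) were below 0, 5902 of them with bounds apart.

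The exact core described above was present in 14 of the counted liver members, 4 of which were 2-fold lower, and their median log2 ratio was -0.36. Of the 19 counted members with a promoter entry and no match, 2 were 2-fold lower and 1 was 2-fold higher, and their median was -0.32. The medians with and without this exact core were close, and members without it may hold a variant that was not searched.

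**Figure D2:**
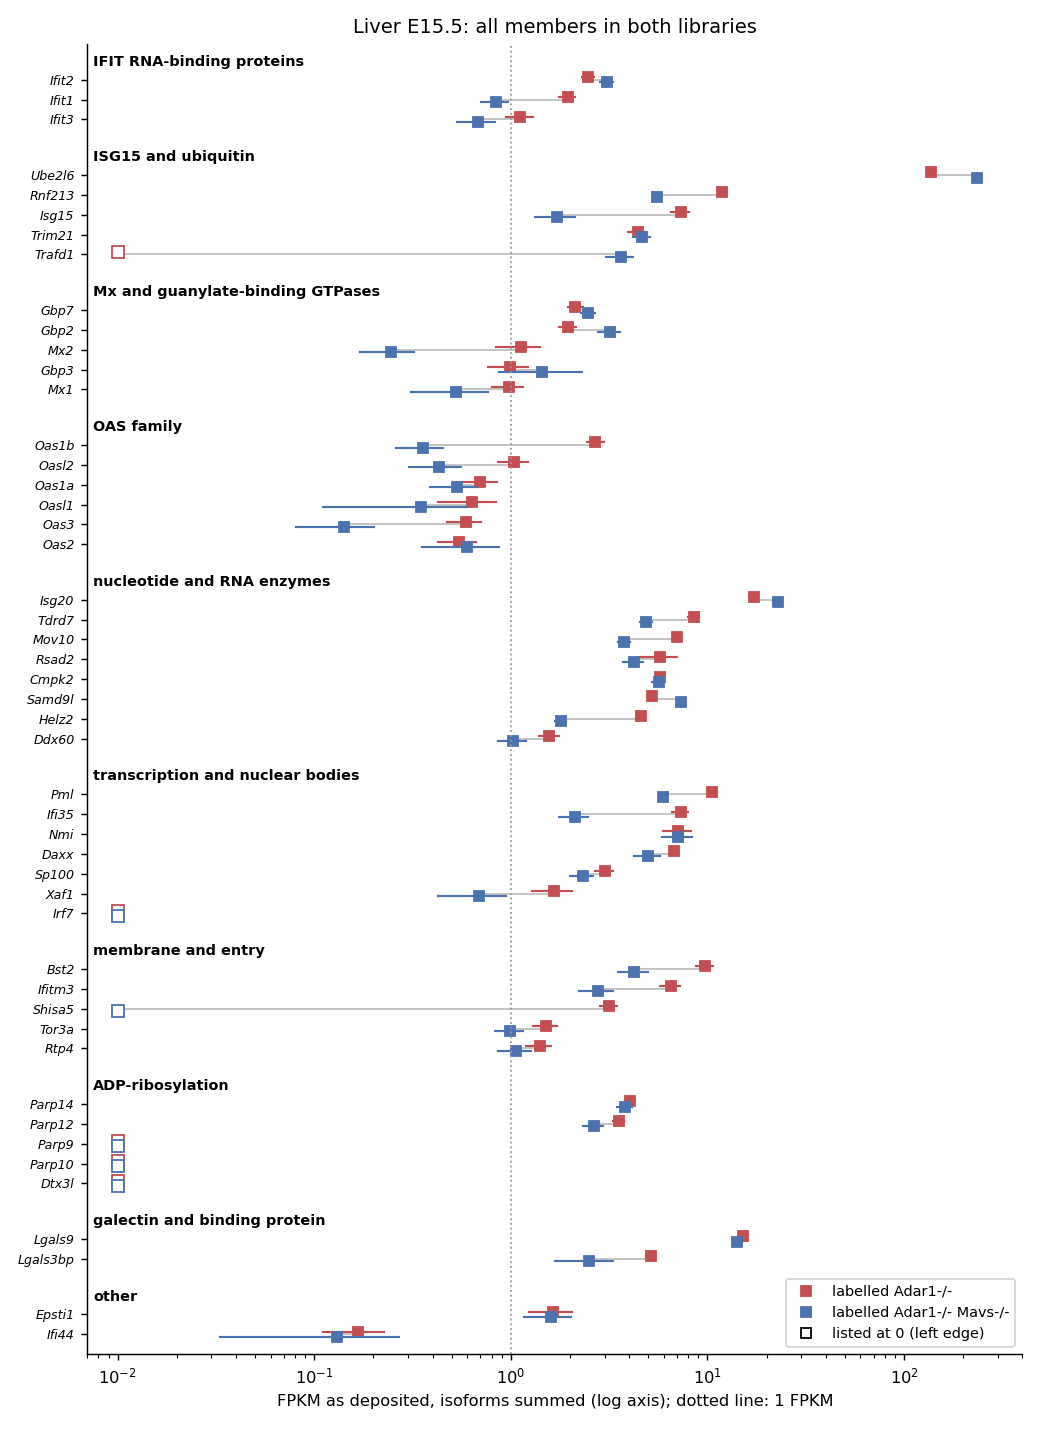
FPKM on a log axis of all 48 members in the liver libraries labelled Adar1-/- (red) and Adar1-/- Mavs-/- (blue), grouped by role; lines are confidence bounds within a library, grey lines join the pair, open squares are listed at 0 and the dotted line is 1 FPKM. Ube2l6 stands apart at 137 and 235 FPKM, and the other members reach at most 22.8 FPKM (Isg20).

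**Figure D3:**
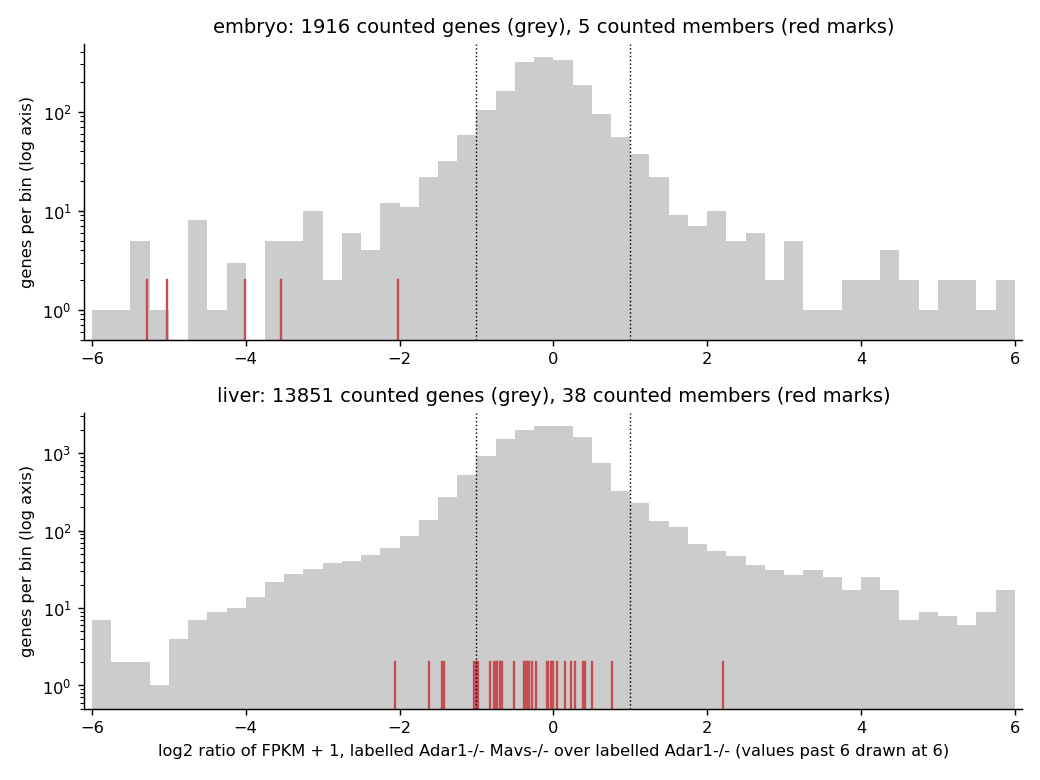
Number of counted genes (log axis) by log2 ratio in bins of 0.25, in embryos (upper panel, 1916 genes) and liver (lower panel, 13851 genes), with red marks for the counted members and dotted lines at the 2-fold limits. The 5 embryo members lie between -5.28 and -2.02, and the 38 liver members between -2.06 and 2.2, most of them inside the dotted lines.

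The 5 ISG15 and ubiquitin genes differed in both directions in liver, with a median log2 ratio of 0.05. Isg15, the ubiquitin-like protein that is attached to other proteins after interferon (mm9 chr4:155573533-155574927), was 7.30 FPKM (6.55 to 8.05) in the library labelled Adar1-/- and 1.73 FPKM (1.32 to 2.13) in the other, a log2 ratio of -1.61. Ube2l6, the E2 enzyme that carries ISG15 to its targets, was higher instead, at 137 FPKM (133 to 141) and 235 FPKM (230 to 241), a log2 ratio of 0.76. It was the most abundant member of all in liver. Isg15 and its own conjugating enzyme therefore differed in opposite directions as reported. With isoforms of status OK only, Ube2l6 stayed under 1 FPKM in both libraries and was not counted, so its direction depends on keeping the other isoforms.

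Rnf213, at -0.99, did not reach 2-fold with 1 FPKM added, and its ratio was 2.70 without isoforms marked as low data. Trim21, the cytosolic antibody receptor, was 4.45 and 4.65 FPKM with overlapping bounds. Trafd1, a negative regulator of innate signalling, was listed at 0 under the Adar1-/- label and was 3.62 FPKM (3.04 to 4.20) in the other. It was the only member called higher, and 5 of its 8 isoforms in the library labelled Adar1-/- carried the low-data status. No fold is given for it.

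The membrane and entry genes held 3 of the 7 lower members, out of 5 counted, with a median log2 ratio of -1.0. Bst2 encodes tetherin, which holds budding virus on the cell surface (mm9 chr8:74058163-74061336). It was 9.67 FPKM (8.71 to 10.6) in the library labelled Adar1-/- and 4.23 FPKM (3.49 to 4.96) in the other, a log2 ratio of -1.03. Ifitm3, which blocks the fusion of entering virus with endosomal membrane (mm9 chr7:148195485-148196669), was 6.53 FPKM (5.76 to 7.29) and 2.77 FPKM (2.22 to 3.32), a log2 ratio of -1.0. Each Ifitm3 value came from 1 reference isoform in each library, so no splitting among isoforms enters it. Ifitm3, Bst2 and Helz2 sit at the limit, and with an upper quartile factor each falls just inside it, at -0.97, -0.99 and -0.98.

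Shisa5, an endoplasmic reticulum and nuclear membrane protein, was 3.16 FPKM (2.84 to 3.48) in the library labelled Adar1-/- and listed at 0 in the other, where 11 of 16 isoforms had the low-data status. The remaining membrane members, Rtp4 and Tor3a, had log2 ratios of -0.22 and -0.33.

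Among the OAS family, whose members make or resemble the synthetases of the 2-5A messenger that activates RNase L, levels were low. Oas1b (mm9 chr5:121262644-121274167) was 2.70 FPKM (2.43 to 2.96) in the library labelled Adar1-/- and 0.356 FPKM (0.262 to 0.450) in the other, a log2 ratio of -1.45, with all of both values in assembled isoforms. Summed over its span with isoforms of no symbol, the ratio was -0.75. Oasl2 was 1.04 and 0.429 FPKM (-0.52). The other 4, Oas1a, Oas2, Oas3 and Oasl1, stayed under 1 FPKM in both libraries and were not counted. Members of the OAS, IFIT, Mx and GBP families resemble each other, so reads may be shared within a family.

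The 3 IFIT genes, whose proteins bind viral RNA ends, all lay within 2-fold. Ifit1 was 1.95 and 0.840 FPKM (log2 ratio -0.68) and Ifit3 1.12 and 0.682 FPKM (-0.34), while Ifit2 was 2.47 and 3.08 FPKM (0.23), each with bounds apart. Ifit1 was -1.09 when all signal in its span was added up. Ifit2 had a ratio of -0.21 with reference isoforms only, so its sign is not settled by these values.

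The guanylate-binding proteins, large GTPases that attack pathogen compartments, ran the other way from the lower members. Gbp2, Gbp3 and Gbp7 had log2 ratios of 0.50, 0.29 and 0.15, and Gbp2 alone had bounds apart. The sign of Gbp2 turned with reference isoforms only (-0.80), and Gbp7 turned under TPM scaling (-0.07). The dynamin-like GTPase Mx2 was 1.12 and 0.246 FPKM (-0.77). Mx1 was 0.976 and 0.526 FPKM and was not counted.

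Of the 8 nucleotide and RNA enzymes, Helz2 was the only one past 2-fold. Helz2, a helicase and exonuclease domain protein (mm9 chr2:180962320-180976732), was 4.61 FPKM (4.44 to 4.78) in the library labelled Adar1-/- and 1.79 FPKM (1.67 to 1.91) in the other, a log2 ratio of -1.01. Isg20, an exonuclease for single-stranded RNA, was the second most abundant member at 17.2 FPKM (16.2 to 18.1) and 22.8 FPKM (21.6 to 24.0), a log2 ratio of 0.38. The other 6 ranged from -0.75 for Mov10, an RNA helicase, to 0.41 for Samd9l, an antiviral translation inhibitor. Rsad2 and Cmpk2, which act in the same antiviral nucleotide pathway, were -0.37 and -0.02, each with overlapping bounds.

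All 6 counted transcription and nuclear body genes were below 0 (median log2 ratio -0.52), though Nmi barely so at -0.007 with overlapping bounds, and 1 passed 2-fold. Over all counted liver genes, 58.0% were below 0 and 9.74% were 2-fold lower. With an upper quartile factor Nmi turned to 0.04. The gene past 2-fold was Ifi35, at 7.31 FPKM (6.62 to 7.99) and 2.11 FPKM (1.75 to 2.47). Summed over its span, Ifi35 was -0.48. Pml, the scaffold of PML nuclear bodies, was 10.5 FPKM (10.2 to 10.8) and 5.95 FPKM (5.76 to 6.14), a log2 ratio of -0.74, and -0.16 over its span. Sp100 and Daxx, partners of PML in those bodies, were -0.28 and -0.39. Nmi, the partner of IFI35, was 7.13 and 7.12 FPKM, so the binding partners were not alike in these values. Irf7, the transcription factor that amplifies interferon production, was listed at 0 in both libraries, with 8 of its 13 isoforms at low-data status.

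The ADP-ribosylation genes gave little to compare under their own symbols. Parp12 and Parp14 were -0.32 and -0.07, and Parp10, Parp9 and the PARP9 partner Dtx3l were listed at 0 in both libraries. Inside the spans of Parp10, Parp9 and Dtx3l, however, isoforms of no symbol were above 0 in both libraries. The ratios over those spans were -0.70, 0.16 and 0.33, so listed at 0 does not mean silent. Epsti1 was 1.64 and 1.60 FPKM and Ifi44 stayed under 1 FPKM. In all, 10 of the 48 liver members were not counted, 4 because they were listed at 0 in both libraries and 6 because they stayed between 0.131 and 0.976 FPKM. Of those 6, 5 were lower in the library labelled Adar1-/- Mavs-/-.

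**Figure D4:**
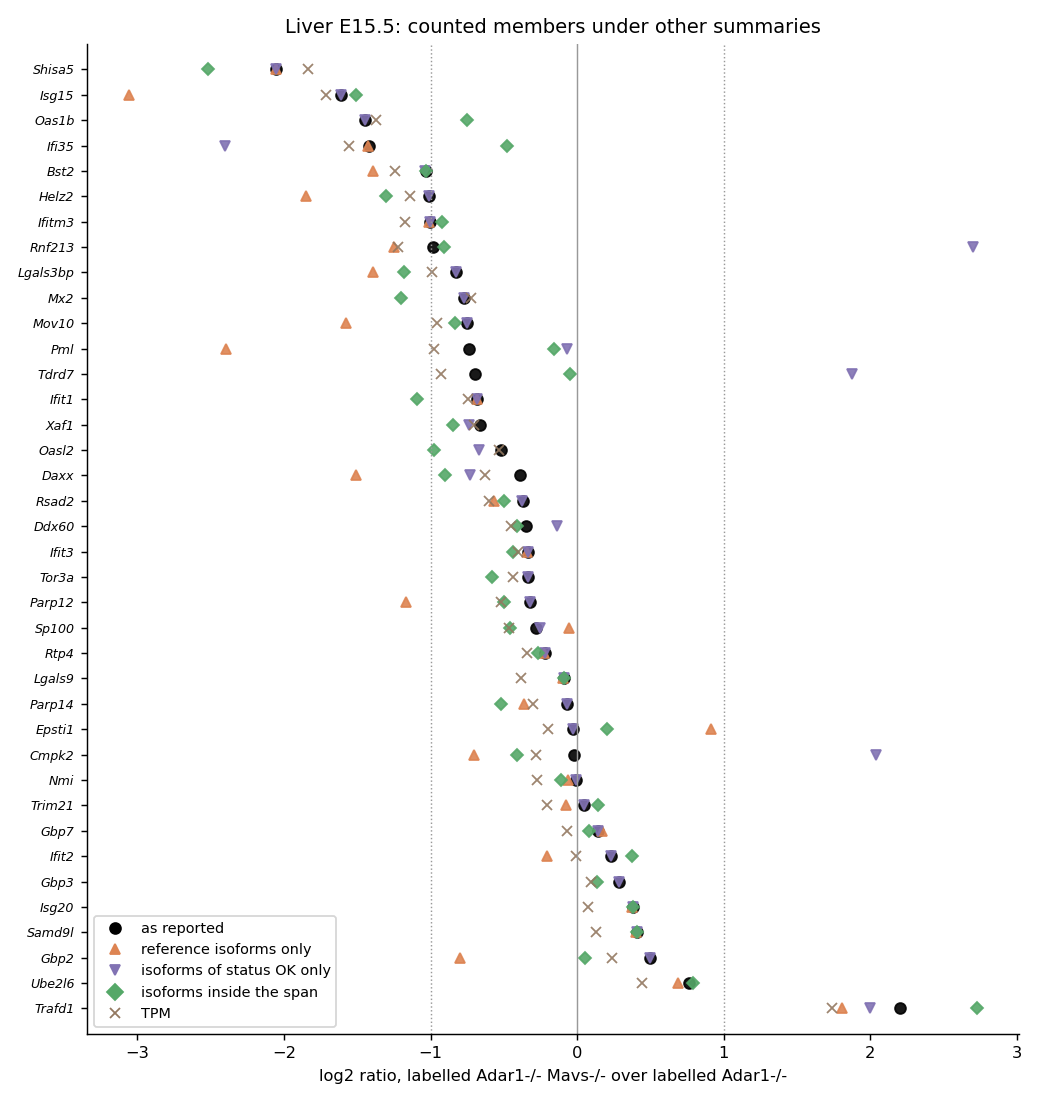
Log2 ratios of the 38 counted liver members as reported (black) and under 4 other summaries of the same isoform values, in the order of the reported ratio; dotted lines are the 2-fold limits. Isg15 and Shisa5 stay left of -1 under each summary shown in which they were counted, whereas Rnf213, Tdrd7 and Cmpk2 cross to the right of 1 when only isoforms of status OK are kept.

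The members were followed across 10 alternative settings of the same libraries, 2 of which change only the filter on low values. Of the 38 counted liver members, 24 were below 0 in each setting in which they were counted, and 5 were above 0 in each. This count was not made over all genes, of which 58.0% were below 0 in liver as reported. Of the 7 called 2-fold lower, 2, Isg15 and Shisa5, were 2-fold lower in each setting in which they were counted. In embryos, 4 of the 5 members were 2-fold lower in each, Rnf213 being the exception. Tdrd7, a tudor-domain antiviral protein at 8.52 and 4.88 FPKM in liver (-0.70), also depended on the isoforms kept, with a ratio of 1.88 when only isoforms of status OK were kept. It was named after its values were seen.

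Of 23 genes of the interferon signalling and sensing pathway, 6 were counted in embryos and 3 of them were 2-fold or more lower in the Adar1-/- Mavs-/- library. Over all counted embryo genes, 9.76% were 2-fold lower. Irf1, an interferon-induced transcription factor, was 23.4 and 1.72 FPKM, a log2 ratio of -2.89. Trim25, whose ubiquitin ligase modifies RIG-I, was 11.1 and 0.342 FPKM (-3.05). Dhx58, which encodes the RIG-I-like receptor LGP2, was 5.97 and 0.552 FPKM (-2.00). Stat2 was 7.06 and 2.44 FPKM (-0.92), just inside the limit, while Socs3 and Tbk1 were -0.21 and -0.08. The count depends on the settings: Stat2 was past 2-fold at -1.23 with FPKM as deposited, -1.09 with a pseudocount of 0.1 and -2.63 with reference isoforms only, where Tbk1 was -1.33. As TPM, which moved all embryo genes by -0.94, all 6 were past 2-fold. Of all counted embryo genes, 16.6% were 2-fold lower with FPKM as deposited, 14% with reference isoforms only and 53% as TPM. Irf1, Trim25 and Dhx58 were 2-fold lower in each of the 7 alternatives computed for this list, with ratios of -1.47 or lower. The receptor genes, Jak1 and Irf9 were not analysed in embryos.

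In liver, 19 of the 23 pathway genes were counted, and the median log2 ratio was -0.11, close to that of all genes. Socs1, Dhx58 and Zbp1 stayed under 1 FPKM, and Irf8 was not analysed here. None was 2-fold lower and 2 (10.5%) were 2-fold higher, against 9.74% and 6.53% of all counted liver genes. Stat2 was 3.81 and 1.44 FPKM (-0.98), and its partner Irf9 was 5.88 and 6.60 FPKM (0.14, and -0.13 as TPM). Ifnar2, a chain of the interferon receptor, was 12.0 and 26.7 FPKM (1.08). Eif2ak2, the kinase PKR, was listed at 0 under the Adar1-/- label and was 32.4 FPKM in the other, with none of its 4 reference isoforms above 0 in either library, so no fold is given.

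Marker lists of other cell types differed between the liver libraries as well. The macrophage list summed to 158 FPKM in the library labelled Adar1-/- and 227 FPKM in the other, with 4 of its 11 counted genes 2-fold higher and Cd68 listed at 0 in the first. Skeletal muscle genes summed to 154 and 10.8 FPKM, all 8 counted ones were 2-fold lower, and Tnnc2 was at 0 in both. Endothelial genes summed to 95.8 and 64.0 FPKM. The list for plasmacytoid dendritic cells, which make much interferon, was 16.4 and 8.72 FPKM, but that sum includes the member Bst2; Ccr9 and Klk1 were at 0 in both libraries and Siglech was 0.141 and 0.323 FPKM. The part of these differences in the liver values above was not tested. In embryos, endothelial genes summed to 30.4 and 29.9 FPKM, the 3 macrophage genes to 0.960 and 3.93 FPKM and the 3 erythroid genes to 8885 and 7613 FPKM. Myh3, the only skeletal muscle gene read there, had a log2 ratio of -0.93. The part of these differences in the embryo values was not tested.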

How the data were processed

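The deposited values are FPKM for each isoform in each library, with confidence bounds below and above it, a status and a coverage value (mean read depth of the isoform, a signal), per the file headers. TopHat 1.4.0, Cufflinks 2.2.1 and the mm9 build appear, with no role stated, per the submitters' processing notes. The sources used here state neither the strand setting nor the number of reads, so overlapping genes on opposite strands may share reads.

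Ensembl transcript identifiers were given symbols from GENCODE M21 (90.2% and 88.7% matched in the embryo libraries, 86.7% in each liver library). Assembled isoforms, and identifiers outside M21 of at least 200 bases, took the symbol in their Cufflinks gene that they overlapped best. FPKM were summed per symbol and bounds combined as the root of summed squares. Isoforms without a symbol held from 39.9% to 63.9% of the FPKM weighted by length. The Adar1-/- Mavs-/- values were multiplied by 1.34 (embryo, from 973 genes) or 0.995 (liver, from 6889 genes), which brought the median log2 ratio to 0 over genes at 5 FPKM or more in each library. A pseudocount of 1 FPKM was added. The script was tested on simulated data. An exact 0 can be a failed estimate, hence the wording listed at 0.

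The members and lists were chosen with earlier results of these data known. Values are given for each embryo member, each liver member at least 2-fold apart or listed at 0 in 1 library, the 5 most abundant liver members, and Stat2, Irf9 and pathway genes at least 2-fold apart (1 other gene the rule names is not reported here); a few others named were chosen after their values were seen. Promoters are those of RefSeq (GRCm38.p6). Of the alternatives, 3 were added after seeing the data: identifiers outside M21 without a symbol, all isoforms inside a gene's span, and members listed at 0 in 1 library left out. Python 3.11.15, pandas 2.3.3, numpy 2.4.6 and matplotlib 3.10.9 were used.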

Additional observations from a re-analysis of the deposited data

How the results depend on the processing

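No paired analysis was possible because each group has 1 library. No result has a replicate check, and the low values of the OAS, Mx and IFIT genes and those listed at 0 are limited by depth and by how isoforms were split. The median log2 ratio of the 5 embryo members, -4.01 as reported, was -5.65 with a pseudocount of 0.1, -6.19 as TPM, -2.53 with isoforms of status OK only and -4.51 with at least 5 FPKM in either library. With isoforms of status OK only, 1 embryo member was called higher, Rnf213, whose log2 ratio reversed to 1.21. The count of 7 lower among 38 liver members was 13 of 38 with a pseudocount of 0.1, 12 of 30 with reference isoforms only and 15 of 38 at 1.5-fold. It was 4 of 38 with an upper quartile factor and 4 of 17 with at least 5 FPKM in either library. Over all counted liver genes, 17.5% were 2-fold lower with reference isoforms only and 9.05% with an upper quartile factor. For the pseudocount, 1.5-fold and 5 FPKM settings the share over all genes was not computed. The count of 1 higher liver member was 4 of 37 with isoforms of status OK only, where 1820 of all 12404 counted genes were 2-fold higher. It was 2 of 38 at 1.5-fold and 2 of 38 with identifiers outside M21 left without a symbol. In that last setting 970 of all 13601 counted genes were 2-fold higher. The count was 0 of 17 with at least 5 FPKM in either library, and 0 of 36 with members listed at 0 in 1 library left out. The liver median of -0.34 was -0.63 with reference isoforms only and -0.70 with at least 5 FPKM in either library. The cause of these shifts was not tested. Scaling moved all genes too, by -0.94 in embryos and -0.32 in liver as TPM and by -0.42 in embryos with FPKM as deposited. As TPM, 53.0% of all embryo genes and 13.9% of all liver genes were 2-fold lower, against 9.76% and 9.74% as reported.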

Other observations

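Several members were read in liver from single-block isoforms, assembled transcripts as long as the stretch of genome they cover and so without a spliced junction. In the library labelled Adar1-/- Mavs-/-, all of the Isg15 value lay in such an isoform of 750 bases, and the spliced reference isoform was at 0, whereas in the library labelled Adar1-/- the whole value was in the reference isoform of 756 bases. Single-block isoforms gave 89.8% of the Oas1b value in the library labelled Adar1-/-. For Pml they gave 22.4% under the Adar1-/- label and 41.4% under the Adar1-/- Mavs-/- label. Among counted members above 0, 5 of 37 had such an isoform under the Adar1-/- label (13.5%) and 7 of 37 under the Adar1-/- Mavs-/- label (18.9%), against 28.1% and 29.3% of all counted genes above 0. In the embryo Adar1-/- library, 54.1% of the Lgals3bp value was in a single-block isoform of 1464 bases.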
